A study of Mus musculus with 6 samples.

Results

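Heat-shock proteins and chaperones are described here in differentiated mouse embryonic stem cells in which a knock-in of the fluorescent protein GFP reports on Nkx2-1, a homeodomain factor needed in lung and thyroid. After 14 days of differentiation the cells, all of the W4/129S6 background, were sorted by GFP, which gave 3 positive samples (Nkx2-1 high) and 3 negative ones (Nkx2-1 low), given as biological replicates. Both groups came from reporter cells of the same differentiation toward lung and thyroid endoderm. The RNA was amplified before it was put on arrays. The genes were chosen by name: symbols of the Hsp families, of J-domain proteins (Dnaja, Dnajb, Dnajc), of the chaperonin subunits (Cct2 to Cct8 with Tcp1) and of the BAG proteins, plus heat-shock factors, Hsp90 partners, and 3 chaperones of the endoplasmic reticulum (ER), Serpinh1, Calr and Canx. The rule found 93 genes among 19938, and 85 of them lay above the background level in at least 1 group. That level is a log2 value of 4.30, the 95th percentile of the values of olfactory and vomeronasal receptor genes. Hspa1b stood only on a row shared with Hspa1a, and Hsf1 and Hsp90ab1 were not analysed here.

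Chaperones hold unfinished or damaged proteins until they fold. Hsp70 proteins bind short stretches of unfolded chain in a cycle of ATP use that J-domain proteins start and nucleotide exchange factors end. Hsp90 finishes kinases and steroid receptors, and the ring-shaped chaperonin CCT folds actin and tubulin. Heat and other damage free heat-shock factors, which bind the heat-shock element (HSE) in promoters and raise cytosolic chaperones. Unfolded protein in the ER acts through the sensors of the unfolded protein response, whose factors bind the ER stress element (ERSE) and raise ER chaperones.

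Promoters with these 2 elements are shown so that the values of the genes that hold them can be read together; the elements were chosen with expression values known. RefSeq promoters (GRCm38.p6, 250 bases before to 50 after a start) were held for 78 of the 93 genes. The HSE was searched as GAA, any 2 bases, TTC, any 2 bases and GAA, or its reverse complement, which starts with TTC, so that matches can overlap in longer runs. It was found in promoters of 5 of the 78 members, and of 0.662% of all 27025 genes with a promoter. Counted by promoter, it was in 7 of 98 of the members, and in 0.603% of all 32851 promoters. The Hsph1 match lies just after the annotated starts. Capitals mark the match.
Hspe1, chr1:55088053-55088082, plus strand: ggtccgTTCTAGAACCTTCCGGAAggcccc
Hsph1, chr5:149636280-149636308, minus strand: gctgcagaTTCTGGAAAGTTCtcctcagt
Chordc1, chr9:18292260-18292288, plus strand: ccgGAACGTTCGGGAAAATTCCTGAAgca
Dnajb6, chr5:29735844-29735872, plus strand: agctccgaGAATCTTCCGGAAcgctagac

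The fifth gene, Hspd1, shares the Hspe1 element. The genes of these mitochondrial partners, Hsp60 and its lid Hsp10, are read in opposite directions, and the match lies in the promoter windows of both. The 250 bases before the Hspe1 start (chr1:55087898-55088147, plus strand) show its place, with the HSE in capitals.
Hspe1: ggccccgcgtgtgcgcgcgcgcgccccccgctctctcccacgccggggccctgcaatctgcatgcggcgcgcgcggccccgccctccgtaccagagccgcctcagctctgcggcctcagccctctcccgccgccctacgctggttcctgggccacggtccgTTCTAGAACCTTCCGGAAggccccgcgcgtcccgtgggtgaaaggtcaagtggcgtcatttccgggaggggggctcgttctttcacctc

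The ERSE was searched on both strands as CCAAT, any 9 bases and CCACG. It was found in promoters of 5 of the 78 members, and of 0.137% of all genes with a promoter. Counted by promoter, it was in 5 of 98 of the members, and in 0.119% of all promoters. Hsp90b1 held it at 2 places.
Hspa5, chr2:34772020-34772048, plus strand: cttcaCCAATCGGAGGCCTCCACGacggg
Hsp90b1, chr10:86705528-86705556, minus strand: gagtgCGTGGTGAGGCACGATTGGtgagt
Hsp90b1, chr10:86705633-86705661, minus strand: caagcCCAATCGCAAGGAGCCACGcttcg
Calr, chr8:84847070-84847098, minus strand: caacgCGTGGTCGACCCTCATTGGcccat
Canx, chr11:50325795-50325823, minus strand: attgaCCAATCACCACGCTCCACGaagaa
Dnajc3, chr14:118937822-118937850, plus strand: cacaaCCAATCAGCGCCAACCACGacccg

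The Hspa5 gene encodes BiP, the Hsp70 of the ER, and its match lies close before the start in this window (chr2:34771840-34772089, plus strand), again in capitals.
Hspa5: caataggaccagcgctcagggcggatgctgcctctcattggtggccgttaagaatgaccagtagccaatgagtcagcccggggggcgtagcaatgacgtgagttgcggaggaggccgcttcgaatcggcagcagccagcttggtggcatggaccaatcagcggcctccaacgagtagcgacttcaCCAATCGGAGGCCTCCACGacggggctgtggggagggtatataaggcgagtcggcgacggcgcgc
A match is a description of letters and not a measured binding site, and a gene with no match may hold other forms of the element.

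The comparison asks how chaperone expression differed between cells sorted as high and as low in Nkx2-1. The log2 expression of Nkx2-1 itself was 7.72 ± 0.08 in the positive samples, against 5.33 ± 0.09 in the negative ones (SD, n = 3 each), and thus above background in both. The labels give embryonic stem cells, and 0 of 6 pluripotency genes, Pou5f1 and Nanog among them, were above background. Below, differences are Nkx2-1 high minus Nkx2-1 low on the log2 scale, ± the standard error (SE) from limma, with p-values adjusted over all genes. "Rose" and "fell" mean higher or lower in Nkx2-1 high at an adjusted p under 0.05. Since these are bulk samples, fewer cells of a type and less RNA per cell cannot be told apart.

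Of the 93 chaperone genes, 1 rose and 4 fell. Dnajb9, which encodes an ER J-domain protein, was the gene that rose, 1.43-fold. Cct8, a subunit of CCT, fell 1.40-fold, Hsph1 and Hspa4, 2 genes of the Hsp110 branch, fell 1.34-fold and 1.33-fold, and Hspd1, the gene of mitochondrial Hsp60, fell 1.28-fold. Over all genes 2.90% rose and 3.09% fell, and of the chaperones 1.08% rose and 4.30% fell, so the calls, 5.38% of the chaperones beside 6.0% of all genes, were near that background. Most other differences were small. The 95% interval of the difference lay within 0.5 of 0 for 79 of the 93. Counts of called genes in the groups and lists below are to be read beside the 2.90% and 3.09%. The 2 sets differ in detection: 13404 of all 19938 genes were above the background level, and 85 of the 93 chaperones. Fitted to genes above that level only, 1510 genes were called, with 1 chaperone gene higher and 8 lower.

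**Figure D1:**
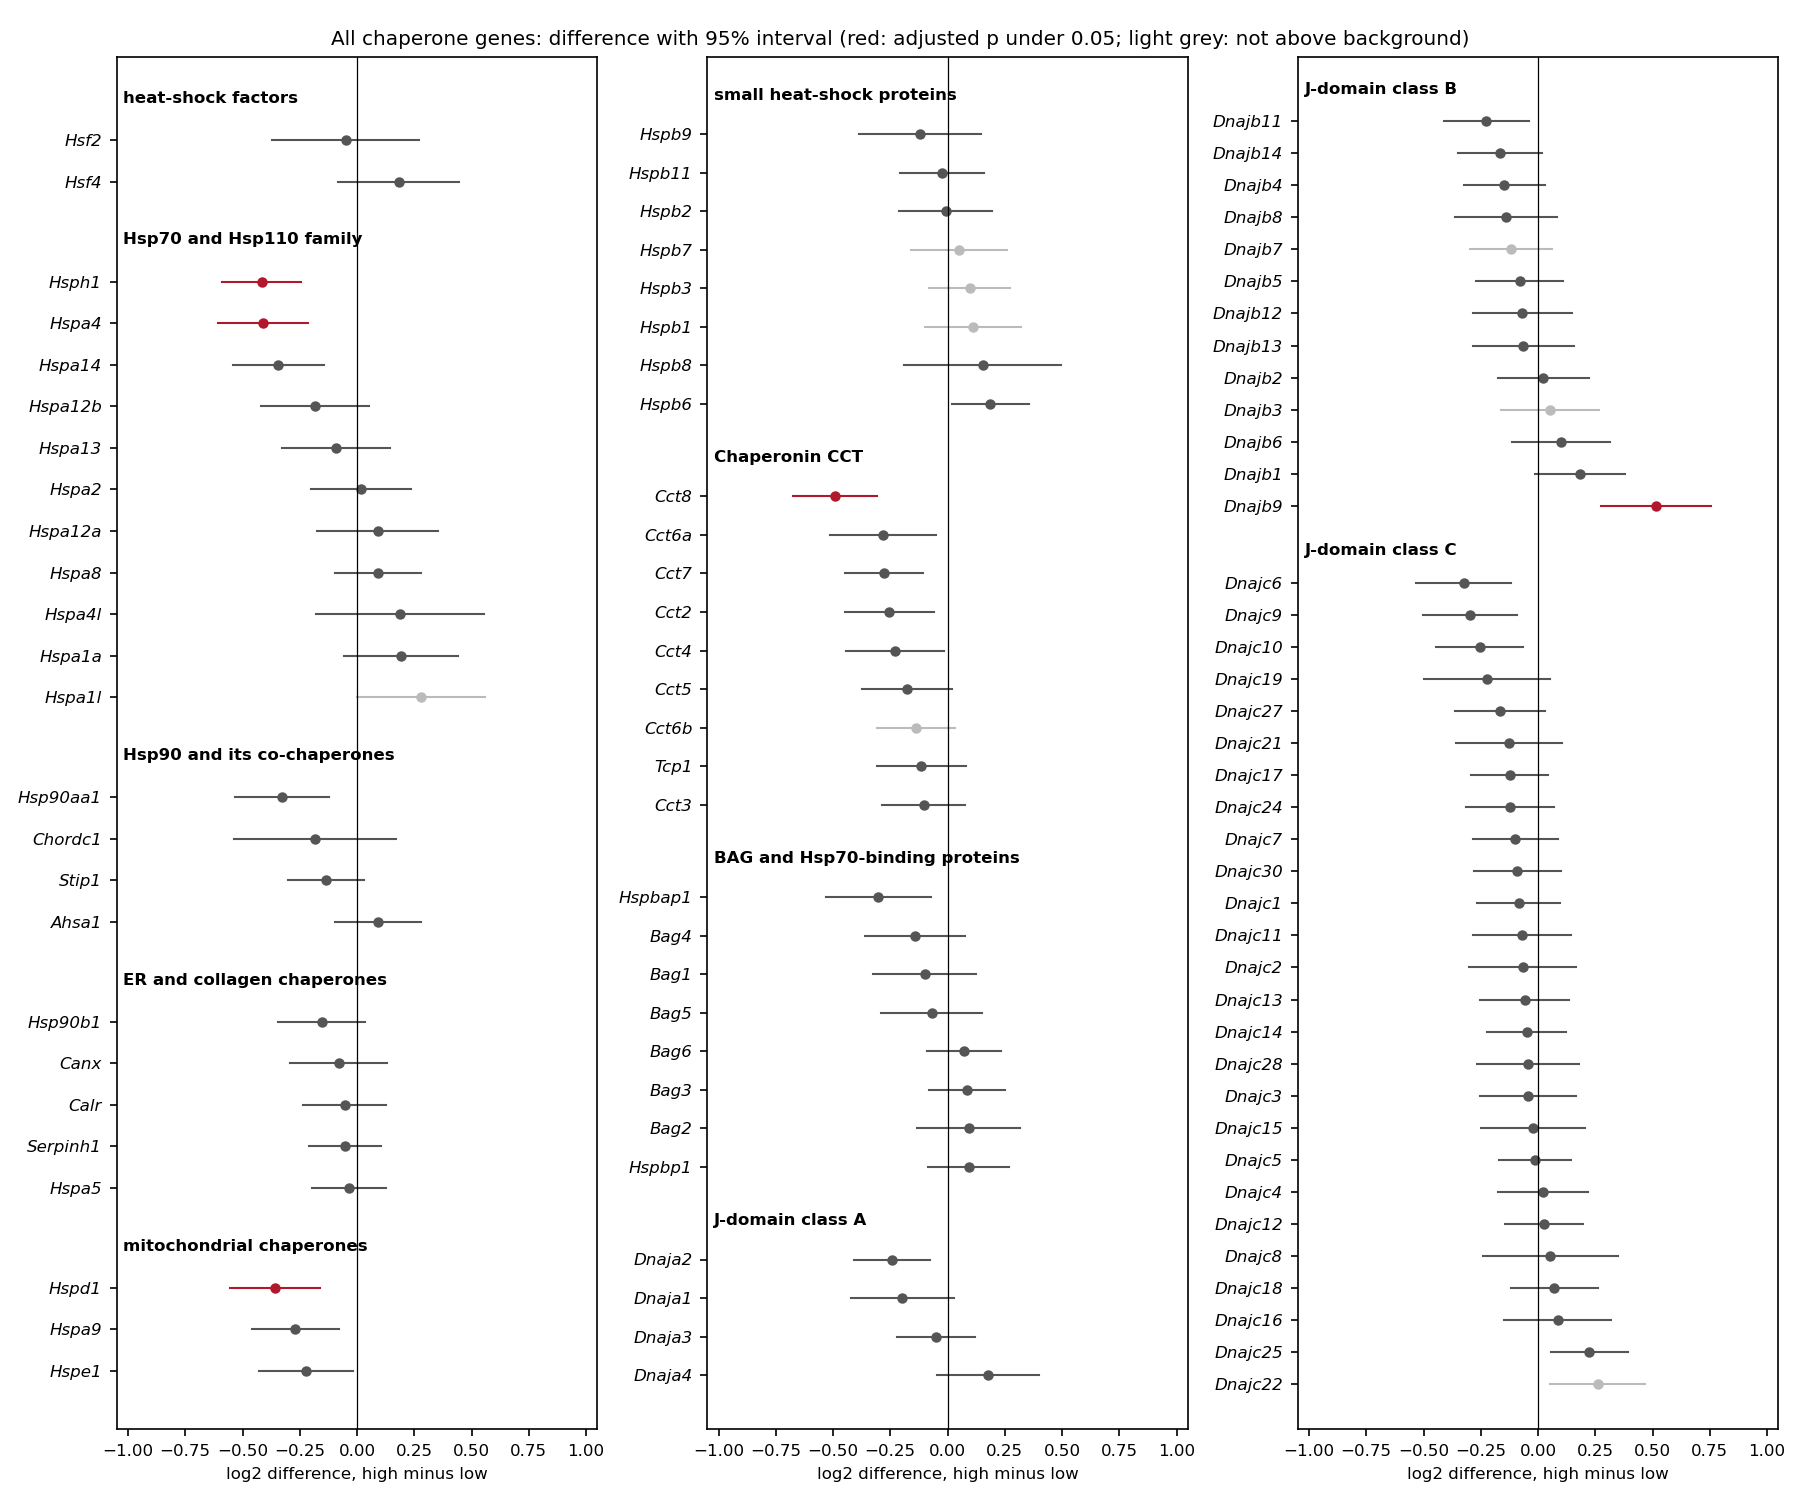
Log2 difference (x axis, Nkx2-1 high minus Nkx2-1 low) of each of the 93 chaperone genes (y axis), by role. Hspbap1 is grouped with the BAG genes and Hspbp1. Points are limma estimates and lines 95% intervals. Red marks the 5 genes past the threshold, Dnajb9 to the right of 0 and Cct8, Hsph1, Hspa4 and Hspd1 to the left; light grey marks the 8 genes not above background.

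Differences below 0 were more frequent than above. They were found for 63 of the 93 genes (67.7%), and for 52.4% of all genes, with 47.6% of all genes above 0. The median difference was -0.07, beside -0.01 over all genes. How these values change with another normalization or without a sample was not tested for the 93 as a set. For the 9 genes of CCT alone, the median difference was -0.23. It was -0.20 with cyclic loess and -0.14 without Nkx2-1 low replicate 1. All 3 Nkx2-1 high samples lay below all 3 Nkx2-1 low samples for 26 chaperone genes (28.0%, against 13.5% of all genes), and above them for 6 (6.45%, against 11.2%). In either direction the groups did not overlap for 24.7% of all genes. At an unadjusted p under 0.05, 18 were lower (19.4%, against 10.4%) and 5 higher (5.38%, against 8.57%). Genes of 1 family are not independent, and these shares were not tested as a set. A larger part of all genes than of the chaperones was not above the background level. Shares among genes above it alone are not given here.

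Among heat-shock factors, Hsf2 had log2 values of 5.54, 5.69 and 5.71 in Nkx2-1 high and 6.03, 5.67 and 5.39 in Nkx2-1 low. The groups overlapped, and the difference of -0.05 ± 0.14 did not pass (limma adjusted p = 0.897). Its sign turned without Nkx2-1 high replicate 1 or without Nkx2-1 low replicate 1. Hsf4, a factor of the lens and of other tissues, differed by 0.18 ± 0.12 (limma adjusted p = 0.476).

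Hspa1a, Dnajb1 and Bag3, 3 genes that heat induces in the cytosol, did not pass the test. Hspa1a, the classic inducible Hsp70, had log2 values of 5.21, 5.25 and 5.52 in Nkx2-1 high and 5.05, 5.03 and 5.32 in Nkx2-1 low. The groups overlapped, and in each of them the sample numbered 3 was the highest. Its difference was 0.19 ± 0.11 (limma adjusted p = 0.410), with a 95% interval from -0.06 to 0.44. The row shared by Hspa1a and Hspa1b, which could not be assigned to 1 of the genes, differed by 0.28 ± 0.10 (limma adjusted p = 0.176 in a fit of all rows with a symbol). Dnajb1, the J-domain partner induced with Hsp70, had 7.28, 7.02 and 7.10 in Nkx2-1 high and 7.00, 6.95 and 6.90 in Nkx2-1 low, with no overlap (0.18 ± 0.09, limma adjusted p = 0.306). Bag3, a heat-inducible exchange factor of selective autophagy, had 6.94, 6.82 and 6.88 against 6.79, 6.78 and 6.82. Its groups overlapped, and the difference was 0.09 ± 0.07 (limma adjusted p = 0.612). The small heat-shock gene Hspb1 was not above background in either group.

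Hspa8, the constitutive Hsp70 of the cytosol, had log2 values of 11.34, 11.35 and 11.20 in Nkx2-1 high and 11.30, 11.13 and 11.19 in Nkx2-1 low. The groups overlapped (0.09 ± 0.08, limma adjusted p = 0.636), and the 95% interval ran from -0.10 to 0.28.

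The Hsp110 proteins are large Hsp70 relatives that act as nucleotide exchange factors and help to take aggregates apart. Hsph1 had 6.14, 6.21 and 6.21 in Nkx2-1 high and 6.59, 6.54 and 6.69 in Nkx2-1 low. The groups were well separated, and the fall of -0.42 ± 0.08 (limma adjusted p = 0.0123) was called in each of the 6 fits without 1 sample, with an adjusted p up to 0.0498. Hspa4 had 7.91, 7.82 and 7.92 against 8.43, 8.16 and 8.30, again with no overlap (-0.41 ± 0.09, limma adjusted p = 0.0248). Its call was lost without Nkx2-1 high replicate 1 or 2 and without Nkx2-1 low replicate 1 or 3, with an adjusted p up to 0.108. The third gene of this branch, Hspa4l, stood at 5.03, 5.05 and 5.67 in Nkx2-1 high and 4.91, 5.06 and 5.22 in Nkx2-1 low. Its groups overlapped, and its difference of 0.19 ± 0.16 did not pass (limma adjusted p = 0.611).

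Hspa14, an Hsp70 of the ribosome-bound complex that receives new chains, lay just outside the threshold. It had 6.11, 6.04 and 6.27 in Nkx2-1 high and 6.55, 6.40 and 6.51 in Nkx2-1 low, with no overlap (-0.34 ± 0.09, limma adjusted p = 0.0522). It was called lower with arrays centred on their median, with only genes above background and with a mean-variance trend. The same held with a replicate block and without Nkx2-1 high replicate 3. In all, 0 of the 11 genes of the Hsp70 and Hsp110 families rose and 2 fell, with a median difference of 0.02. Over all genes 2.90% rose and 3.09% fell.

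**Figure D2:**
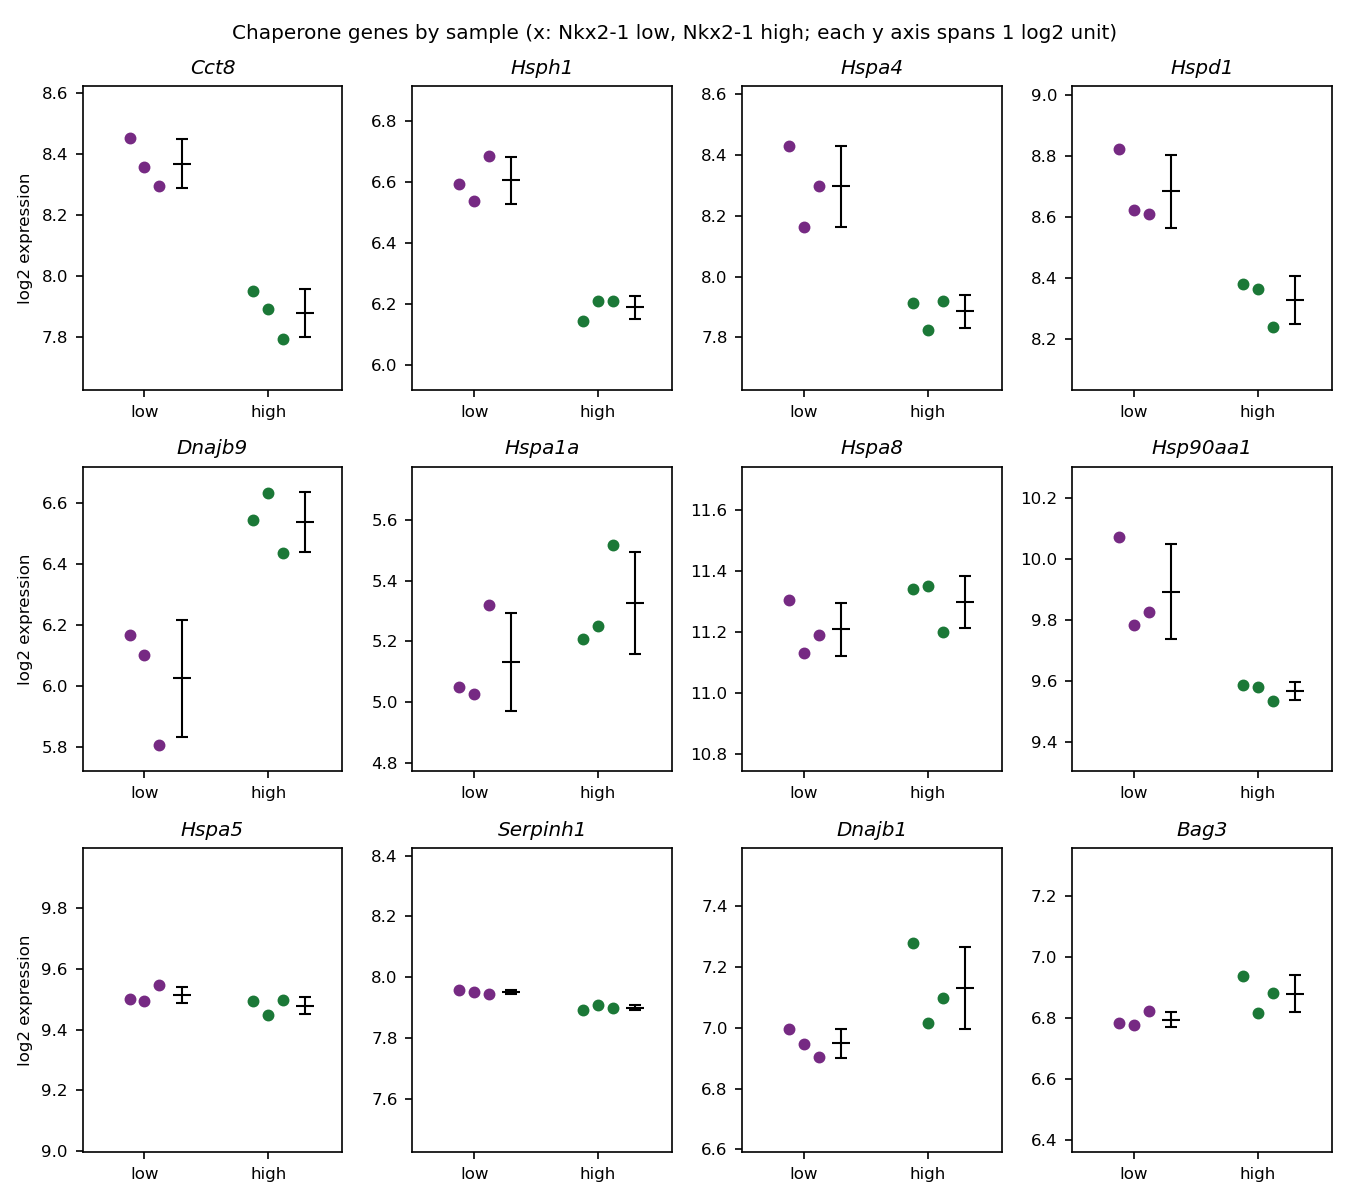
Log2 expression (y axis, 1 unit in each panel) of 12 chaperone genes in the 3 Nkx2-1 low (purple) and 3 Nkx2-1 high (green) samples; bars give the mean ± SD. The groups are apart for Cct8, Hsph1, Hspa4, Hspd1 and Dnajb9, and overlap for Hspa1a, Hspa8 and Hspa5.

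Of the 4 genes of Hsp90 and its co-chaperones, 3 had a difference below 0 and 1 above, and limma called 0, with 1 lower and 0 higher at an unadjusted p under 0.05. Hsp90aa1, the inducible cytosolic Hsp90, had log2 values of 9.59, 9.58 and 9.53 in Nkx2-1 high and 10.07, 9.78 and 9.83 in Nkx2-1 low. The groups did not overlap, Nkx2-1 low replicate 1 was the highest sample, and the difference was -0.33 ± 0.09 (limma adjusted p = 0.0751). Fitted with a mean-variance trend it passed (adjusted p = 0.0285), as it did with only genes above background (adjusted p = 0.0427). Stip1, which bridges Hsp70 and Hsp90, differed by -0.14 ± 0.07 (limma adjusted p = 0.369), and the Hsp90 activator Ahsa1 by 0.09 ± 0.08 (limma adjusted p = 0.624). Chordc1, an Hsp90-binding protein whose promoter holds the long HSE run, stood at 6.95 in Nkx2-1 low replicate 1 and at 6.25 to 6.48 in the other 5 samples (-0.18 ± 0.16, limma adjusted p = 0.605). In the list of other cytosolic co-chaperones and prefoldin, 1 of 19 measured genes fell and 0 rose. It was Cdc37, which brings kinases to Hsp90 (-0.54 ± 0.07, limma adjusted p = 0.00289). Cdc37 had 7.58, 7.57 and 7.51 in Nkx2-1 high and 8.15, 8.03 and 8.09 in Nkx2-1 low, with the groups far apart.

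The chaperonin CCT is built of different subunits in each ring, and the difference was below 0 for all 9 genes (8 above background). Cct8 had log2 values of 7.95, 7.89 and 7.79 in Nkx2-1 high and 8.45, 8.36 and 8.30 in Nkx2-1 low. The groups were apart by more than their spread, and the fall of -0.49 ± 0.08 (limma adjusted p = 0.00728) was called in each of the 6 fits without 1 sample, with an adjusted p up to 0.0359. Cct7 had 9.44, 9.37 and 9.29 against 9.67, 9.63 and 9.64, with no overlap (-0.28 ± 0.08, limma adjusted p = 0.0665). Cct2 (-0.25 ± 0.09), Cct4 (-0.23 ± 0.10), Cct5 (-0.18 ± 0.09) and Cct6a (-0.28 ± 0.10) also had groups that did not overlap and did not pass. Tcp1, the first subunit, had 10.32, 10.30 and 10.15 against 10.49, 10.31 and 10.32, which overlapped (-0.12 ± 0.09, limma adjusted p = 0.549), as did Cct3 (-0.10 ± 0.08). Cct6b, a subunit of the testis, was not above background.

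In all, 1 of the 9 subunits fell, 7 had groups that did not overlap, with the Nkx2-1 high samples lower (beside 13.5% of all genes), and the median difference was -0.23. Those 7 include Cct6b, which was not above background. Nkx2-1 low replicate 1 was the highest sample for 8 of the 9. Without it the median difference was -0.14, with all 9 still below 0 and 1 called. Subunits share the samples and are not 9 independent observations.

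**Figure D3:**
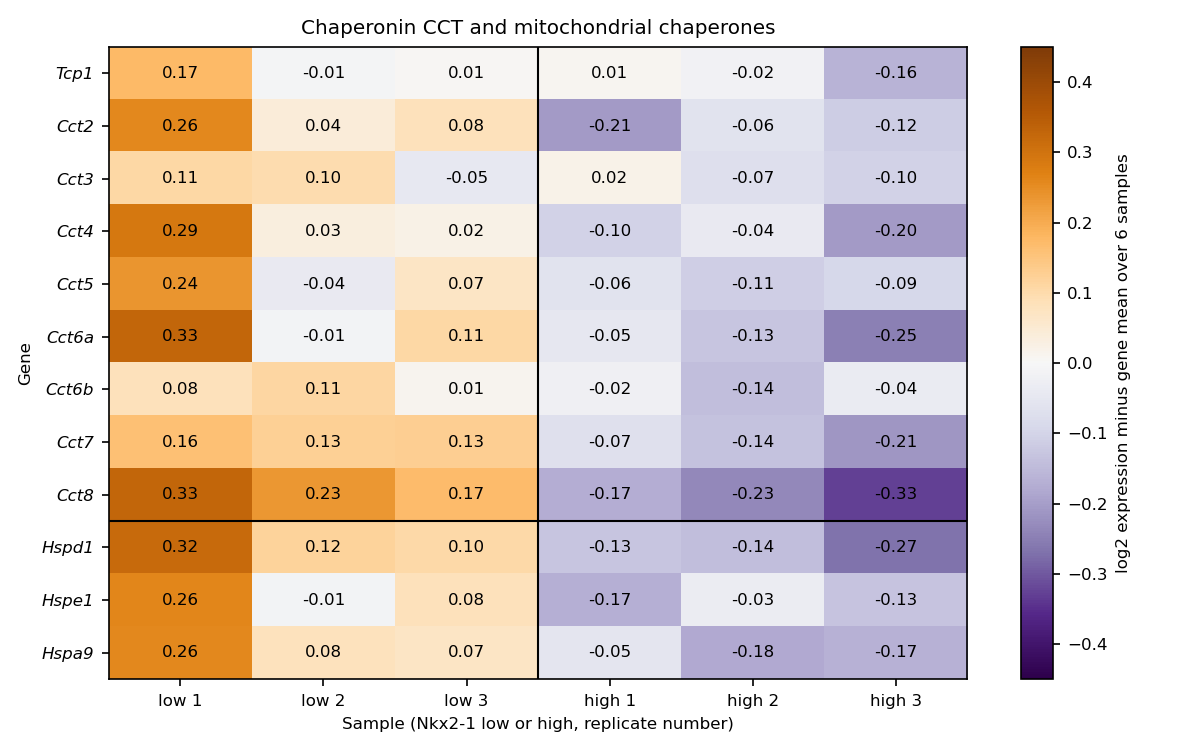
Log2 expression minus the mean of the gene over the 6 samples, for the 9 CCT subunits and 3 mitochondrial chaperones (rows) in each sample (columns). Nkx2-1 low replicate 1 is the highest sample for 11 of the 12 genes, and Cct8 and Hspd1 are above the mean in all 3 Nkx2-1 low samples and below it in all 3 Nkx2-1 high samples.

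The 3 mitochondrial chaperones were lower in every Nkx2-1 high sample than in every Nkx2-1 low sample, and 1 was called. Hspd1 had 8.38, 8.37 and 8.24 in Nkx2-1 high and 8.82, 8.62 and 8.61 in Nkx2-1 low (-0.36 ± 0.09, limma adjusted p = 0.0446). Its call was lost whichever of the 6 samples was left out (adjusted p up to 0.124) and when arrays were centred on their median (adjusted p = 0.0620). The second array row of Hspd1 had 7.47, 7.33 and 7.12 against 8.06, 7.68 and 7.84, and differed by -0.56 ± 0.12 (limma adjusted p = 0.0286 in a fit of all rows). Both rows separate the groups. Probe positions were not used here, so whether a row of Hspd1 also responds to processed pseudogenes was not tested, nor was it for Hspe1, Hsp90aa1 and Hspa8.

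Hspe1, its neighbour and partner, had 8.04, 8.18 and 8.08 in Nkx2-1 high and 8.48, 8.20 and 8.30 in Nkx2-1 low. The groups came close without overlap (-0.22 ± 0.09, limma adjusted p = 0.217). Hspa9, the mitochondrial Hsp70 that pulls proteins through the membrane, had 8.89, 8.76 and 8.77 against 9.20, 9.02 and 9.01, with no overlap (-0.27 ± 0.08, limma adjusted p = 0.109). In the list of other mitochondrial folding and proteolysis genes, limma called 0 of 12. At an unadjusted p under 0.05, 1 was higher and 1 lower, and the median difference was -0.04. Trap1, the Hsp90 of mitochondria, differed by -0.06 and the protease gene Lonp1 by 0.02.

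The 5 chaperones of the ER did not pass, and their differences ran from -0.16 to -0.03. Hspa5 had log2 values of 9.49, 9.45 and 9.50 in Nkx2-1 high and 9.50, 9.49 and 9.54 in Nkx2-1 low. The groups overlapped (-0.03 ± 0.07, limma adjusted p = 0.850), and the 95% interval ran from -0.19 to 0.13. Hsp90b1, the Hsp90 of the ER, had 9.76, 9.70 and 9.65 against 9.98, 9.74 and 9.85, with overlap (-0.16 ± 0.09, limma adjusted p = 0.381). The lectin chaperones of glycoproteins differed by -0.05 ± 0.08 for Calr, with a 95% interval from -0.24 to 0.13, and by -0.08 ± 0.09 for Canx, with a 95% interval from -0.29 to 0.13. The sign turned without Nkx2-1 low replicate 3 for Calr and without Nkx2-1 low replicate 1 for Canx.

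Dnajb9 stood apart from them. It had 6.55, 6.63 and 6.44 in Nkx2-1 high and 6.17, 6.10 and 5.80 in Nkx2-1 low. Nkx2-1 low replicate 3 was the lowest sample, and the groups did not overlap (0.51 ± 0.11, limma adjusted p = 0.0213). The call was lost without Nkx2-1 high replicate 1 or 2 and without Nkx2-1 low replicate 2 or 3, with an adjusted p up to 0.0963. Its protein, ERdj4, helps to degrade misfolded ER proteins and binds the sensor Ern1, and the gene is a known target of the factor Xbp1. Dnajb9 was not among the genes with a promoter match to the HSE or the ERSE. The other J-domain genes of the ER did not pass, among them Dnajc3 (-0.04 ± 0.09), Dnajb11 (-0.23 ± 0.08) and Dnajc10 (-0.26 ± 0.09).

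In the list of ER folding and unfolded protein response genes, 3 of 30 rose and 1 fell, beside 2.90% and 3.09% of all genes. The median difference of the list was 0.06. The 3 that rose were regulators. Xbp1, the factor that IRE1 activates by splicing, had 8.60, 8.46 and 8.28 in Nkx2-1 high and 7.71, 7.57 and 7.70 in Nkx2-1 low, with the groups far apart (0.79 ± 0.10, 1.73-fold, limma adjusted p = 0.00153). These array values do not separate its spliced from its unspliced form. Ern1, which encodes IRE1, rose by 0.44 ± 0.08 (limma adjusted p = 0.0103), a call lost without Nkx2-1 high replicate 2 (adjusted p = 0.0570). Ppp1r15a, whose product restarts translation after stress and which is itself induced early, rose by 0.54 ± 0.09 (limma adjusted p = 0.00747).

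The gene that fell was Pdia6, a disulfide isomerase of the ER (-0.36 ± 0.07, limma adjusted p = 0.0192). That call was lost without Nkx2-1 high replicate 1 or 2 and without Nkx2-1 low replicate 1 or 3 (adjusted p up to 0.0868). Other genes of that list did not pass, among them the sensor Atf6 (0.31, limma adjusted p = 0.0650), Atf4 (0.06), Ddit3 (0.07), Hyou1 (-0.08), Sdf2l1 (-0.01) and Pdia4 (-0.05).

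**Figure D4:**
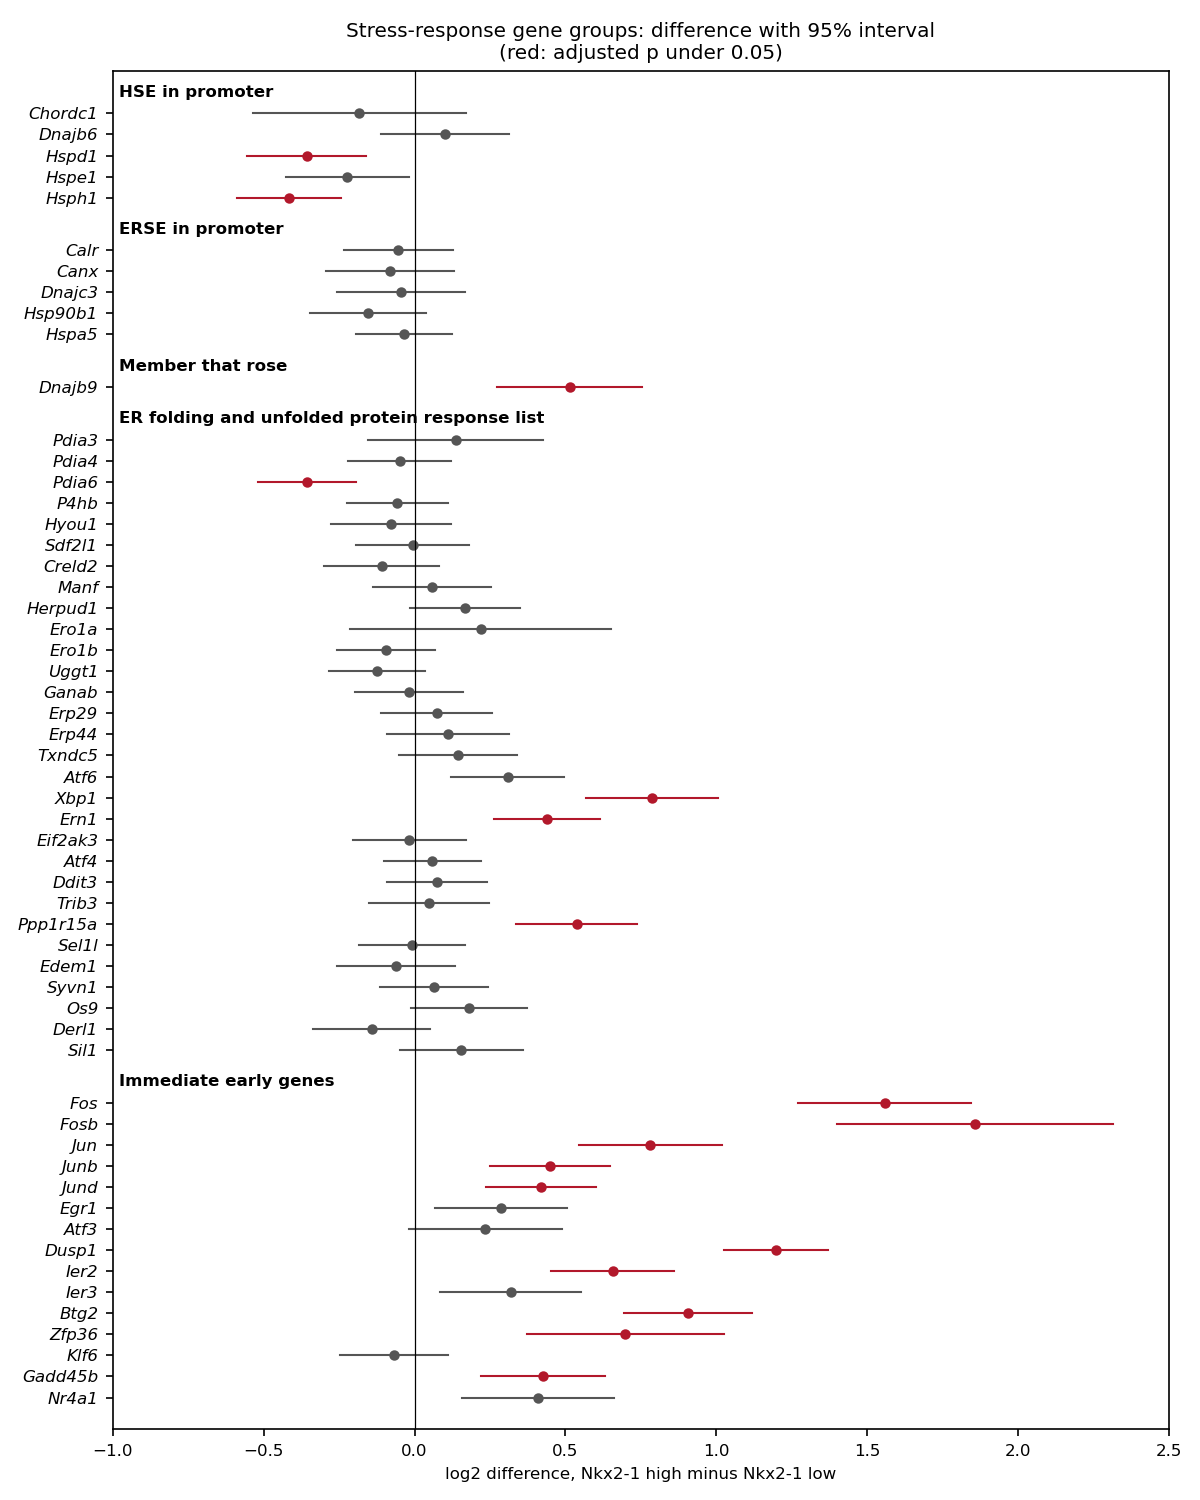
Log2 difference (x axis, Nkx2-1 high minus Nkx2-1 low) with 95% interval for genes (y axis) with an HSE or ERSE match in a promoter, for Dnajb9, for the fixed list of 30 ER folding genes and for 15 immediate early genes; red marks an adjusted p under 0.05. The 5 ERSE genes lie near 0, 2 of the 5 HSE genes fell, and 10 of the 15 immediate early genes rose. Over all genes 2.90% rose and 3.09% fell.

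By promoter, 0 of the 5 HSE genes rose. Hsph1 and Hspd1 fell, and Hspe1 (-0.22), Chordc1 (-0.18) and Dnajb6 (0.10 ± 0.10) did not pass. Over all genes 2.90% rose and 3.09% fell. Hspd1 and Hspe1 share 1 element, so the 5 are not separate cases. The heat-induced genes Hspa1a (0.19), Dnajb1 (0.18) and Bag3 (0.09) were not among the genes with a match. Promoters were held for 78 of the 93 genes, and whether those of these 3 were among them is not given here. The 5 ERSE genes had differences from -0.16 to -0.03, and 0 of them rose or fell by limma, with 0 at an unadjusted p under 0.05. Genes of the immediate early response, which cells also start when they are handled, were measured beside them: 10 of 15 rose and 0 fell, with a median difference of 0.45. Fosb (1.86), Fos (1.56) and Dusp1 (1.20) were among them. The log2 of the summed linear values of that list ran from 11.24 to 11.39 in Nkx2-1 high and from 10.48 to 10.59 in Nkx2-1 low. Its part in the values of chaperone genes was not tested.

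Serpinh1 encodes Hsp47, the ER chaperone of procollagen. It had log2 values of 7.89, 7.91 and 7.90 in Nkx2-1 high and 7.96, 7.95 and 7.95 in Nkx2-1 low. The samples of each group lay within a narrow range that did not overlap with the other, yet the difference of -0.05 ± 0.07 was small and did not pass (limma adjusted p = 0.760). Its 95% interval ran from -0.21 to 0.11. Of the fibrillar collagens, the clients of Hsp47, 4 were called and Col5a1 was not (-0.02 ± 0.07, limma adjusted p = 0.928). Col1a2 had 8.67, 8.64 and 8.54 in Nkx2-1 high and 10.20, 10.12 and 10.02 in Nkx2-1 low (-1.50 ± 0.08, 2.82-fold lower, limma adjusted p = 1.70e-05). Col3a1 fell by 1.11 ± 0.14 on the log2 scale and Col1a1 by 0.90 ± 0.09. Col5a2 rose by 0.44 ± 0.09, a call that held only without Nkx2-1 low replicate 2 among the 6 fits with a sample left out (adjusted p up to 0.0637). In the list of collagen folding genes and fibrillar collagens, 1 of 16 measured genes rose and 3 fell, and the 4 called were collagens. The collagen-modifying enzymes P4ha1 (-0.23), P4ha2 (-0.48), Plod2 (-0.41) and Plod1 (0.21) and the isomerase Ppib (0.15) did not pass.

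J-domain genes form the largest group, with 4 of class A, 13 of class B and 26 of class C, and Dnajb9 was the single one called. Dnaja1, a general partner of Hsp70, had 7.11, 6.93 and 6.97 in Nkx2-1 high and 7.39, 7.06 and 7.16 in Nkx2-1 low, with overlap (-0.20 ± 0.10, limma adjusted p = 0.337). Its second array row differed in the other direction (0.05 ± 0.10). Dnaja2, its relative, differed by -0.24 ± 0.07 with no overlap (limma adjusted p = 0.101). In class C, differences ran from -0.33 to 0.26. Dnajc6, the auxilin of neurons that uncoats clathrin vesicles, had 4.34, 4.07 and 4.09 in Nkx2-1 high and 4.43, 4.55 and 4.50 in Nkx2-1 low, with no overlap (-0.33 ± 0.09, limma adjusted p = 0.0805). Its Nkx2-1 high mean lay under the background level. Dnajc9, a histone chaperone, differed by -0.30 ± 0.09 (limma adjusted p = 0.104), with 7.37, 7.08 and 7.11 against 7.50, 7.45 and 7.49. The median difference was -0.12 in class A, -0.07 in class B and -0.06 in class C.

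Of the 8 small heat-shock genes, 5 were above background, and limma called 0. At an unadjusted p under 0.05, 1 was higher and 0 lower. Hspb6, a small chaperone of muscle, was that gene, with 6.25, 6.23 and 6.33 against 6.05, 6.07 and 6.13 and no overlap (0.19 ± 0.07, limma adjusted p = 0.204). Hspb8, the partner of Bag3, ranged from 5.38 to 6.04 in Nkx2-1 high, with replicate 3 the highest, and from 5.43 to 5.66 in Nkx2-1 low. Of a group of 8 genes, made up of the BAG genes, Hspbp1 and Hspbap1, limma called 0. At an unadjusted p under 0.05, 0 were higher and 1 was lower. That was Hspbap1, with 5.51, 5.31 and 5.52 against 5.57, 5.77 and 5.90 (-0.30 ± 0.10, limma adjusted p = 0.138). Bag6, which guards tail-anchored proteins, differed by 0.07 ± 0.07.

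Among 14 measured genes of protein quality control, 1 rose and 2 fell. The autophagy receptor gene Sqstm1 rose (0.54 ± 0.11, limma adjusted p = 0.0183), and the proteasome subunit genes Psmd1 (-0.40 ± 0.08, limma adjusted p = 0.0226) and Psmd14 (-0.39 ± 0.07, limma adjusted p = 0.0146) fell. These calls were lost in 4, 5 and 2 of the 6 fits without 1 sample. For Sqstm1 these left out Nkx2-1 high replicate 1 or 2 or Nkx2-1 low replicate 2 or 3, for Psmd1 any sample but Nkx2-1 high replicate 3, and for Psmd14 Nkx2-1 high replicate 2 or Nkx2-1 low replicate 2. The other proteasome subunits did not pass, among them Psma1 (-0.15), Psmb5 (-0.13), Psmc1 (-0.09) and Psmd11 (-0.06), nor did the segregase gene Vcp (-0.17). Over all 5 lists of related genes, 5 of 91 rose and 7 fell, with a median difference of -0.05. Of all genes, 2.90% rose and 3.09% fell.

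Markers of cell types and of growth moved between the same groups. The counts of called markers stand beside 2.90% of all genes that rose and 3.09% that fell. Of 14 measured proliferation genes 4 fell and 0 rose, and the 4 belong to the start of DNA synthesis and to its supply (Ccne1 at -0.70, Rrm2 at -0.54, Mcm2 at -0.36 and Pcna at -0.33). The mitotic genes Bub1 (-0.19), Birc5 (-0.16), Cdk1 (-0.06), Top2a (-0.04), Mki67 (-0.03), Aurka (0.05), Plk1 (0.12) and Aurkb (0.12) did not pass. Nor did the replication gene Mcm5 (-0.19, limma adjusted p = 0.243) or the cyclin gene Ccna2 (0.006). For Bub1, Cdk1 and Mcm5 the groups did not overlap, with Nkx2-1 high lower. The log2 of the summed linear values of that list ran from 11.53 to 11.63 in Nkx2-1 high and from 11.71 to 11.72 in Nkx2-1 low. Of 11 neuronal genes 6 fell and 0 rose (the same measure ran from 8.46 to 8.86 against 9.34 to 9.40). Of 10 measured mesenchyme genes 4 fell and 0 rose (11.57 to 12.06 against 12.06 to 12.43, ranges that overlapped slightly). In the mesenchyme list 6 differences were below 0 and 4 above, among these Fn1 (0.49, limma adjusted p = 0.0643). No measured gene of the neuronal and mesenchyme lists had both group means at background. For Dcx, Stmn2 and Elavl4, which are neuronal genes that fell, the Nkx2-1 high mean lay under the background level. Of 6 endothelial genes 2 rose and 0 fell (7.91 to 8.35 against 7.48 to 7.65), with Cdh5 not above background. Those that rose were Flt4 (1.10) and Tek (0.90), and the Nkx2-1 low mean of Tek lay under the background level. In the endothelial list 4 differences were above 0 and 2 below, those of Kdr (-0.08) and Cdh5 (-0.17). Of 8 genes of epithelium and endoderm 1 fell, Epcam, with Sox17 not above background (8.16 to 8.49 against 8.30 to 8.53). The Nkx2-1 high mean of Epcam was 4.31, close to the background level of 4.30. In that list 5 differences were below 0 and 3 above, among these Krt18 (0.35), which did not pass. Of 6 blood genes and 7 muscle genes, limma called 0, with 0 and 2 lower at an unadjusted p under 0.05, and the blood markers Ptprc and Cd53 were not above background. The part of these markers in the chaperone differences was not tested.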

How the data were processed

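Arrays of 6 samples were compared, 3 Nkx2-1 high and 3 Nkx2-1 low. The authors deposited log2 expression values, made with RMA per the submitters' processing notes. RMA's version and the genome build: not given in the sources used here. That these are log2 values follows from RMA and from their range (medians per array 4.98 to 5.06). Depth does not apply to arrays, and their number limits the precision. Scan dates were not used here, and no test by batch was made. The RNA was amplified, which can change the relative signal of transcripts, per the labels' protocols.

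Of 29011 rows, 21789 carried a single symbol by the platform annotation of GEO, 1621 several and 5601 none. RefSeq (GRCm38.p6) held the Entrez gene ID of 21698 of them. The row with the highest mean was used per gene. Of the 93 members, 8 had several rows, and rows can also respond to near-identical copies such as processed pseudogenes. limma 3.58.1 in R 4.3.3 (lmFit, eBayes, group as the only term) was fitted to all 19938 genes with Benjamini-Hochberg adjustment at 0.05, and checked on simulated data. Not above background means that neither group mean exceeded 4.30, from 1210 receptor rows. Folds are 2 to the power of the log2 difference, with a group mean under the background level set to that level. No fold printed here is of a gene with such a mean.

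Named were all members called, a fixed set of key chaperones, and up to 4 called genes of each related list. Other genes were named after their values were seen, as were the motifs chosen. The members and lists were chosen with earlier results of these data known. Alternatives were cyclic loess, a replicate block, arrays centred on the median, a fit of genes above background, robust eBayes with a mean-variance trend, averaging the rows of a gene, leaving out each sample, and, chosen after seeing the data, the second row of a gene. Some genes of the fixed lists are not reported here. Python 3.11.15 and matplotlib 3.10.9 drew the figures.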

Additional observations from a re-analysis of the deposited data

How the results depend on the processing

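Over the alternatives, Dnajb9 was the only chaperone gene called higher. It was called in all 7 fits of the 6 samples, and in 2 of the 6 fits without 1 sample. The number of chaperone genes called lower was 4 as reported, 8 with only genes above background and 9 with a mean-variance trend and robust eBayes. Cct8, Hsph1, Hspa4 and Hspd1 were among both, and Cct7, Hsp90aa1 and Hspa14 were added in both. Dnajc6 was added by the former, and Dnaja2 and Hspa9 by the latter. Centring arrays on their median added Hspa14 and lost Hspd1. Leaving out Nkx2-1 high replicate 1 added Dnajc6 and Dnajc9, and leaving out Nkx2-1 high replicate 3 added Hspa14. Without 1 sample, chaperone genes called lower ran from 2 to 4, chaperone genes called higher from 0 to 1, related folding genes called from 6 to 13 (12 as reported) and all genes called from 624 to 1086 (1196 as reported). The replicate numbers were not taken to pair the samples: same-numbered samples correlated in their deviations from the group means at 0.181, -0.00405 and 0.277, and 4 of 6 samples correlated best with their own number. With a replicate block 1470 genes were called, with 1 chaperone gene higher and 5 lower (Hspa14 added), and 13 related genes. Among the called and key chaperone genes, the sign turned for 3 with a sample left out; other members were not followed this way. Hsf2 ran from -0.20 to 0.12 (0.00425 without Nkx2-1 high replicate 1), Canx from -0.15 to 0.00983 and Calr from -0.10 to 0.00504. Dnaja1 was 0.0523 in its second row and -0.20 in the first, and neither was called. The cause of these changes was not tested. Over the alternatives, values of these called and key chaperone genes alone were counted: 246 kept direction and side of the threshold, 15 lost the call, 3 gained it and 5 reversed.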

Other observations

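Rows of the same gene allowed a second look at members measured more than once. The 3 rows of Hsp90aa1 differed by -0.33, -0.27 and -0.22, and the 2 rows of Hspe1 by -0.22 and -0.25. The 3 rows of Hspa8 differed by 0.09, 0.07 and 0.19. Of the 15 rows of Dnajc13, an endosomal J-domain protein, 10 had a difference below 0 and 5 above, from -0.22 to 0.17, and 0 were called by limma in the fit of all rows, with 2 lower and 0 higher at an unadjusted p under 0.05. The 2 rows of Dnajc3 held identical values.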
